A study of Mus musculus with 16 samples.

Results

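Cathepsins are the main proteases of the lysosome, and 10 of their genes (Ctsa, Ctsb, Ctsc, Ctsd, Ctsf, Ctsh, Ctsk, Ctsl, Ctss and Ctsz) were selected by symbol and followed in microglia of the retina, its resident macrophages. All 10 were found once each among the 54532 genes of the table. Cells were compared between oxygen-induced retinopathy (OIR), a mouse model in which newborns are exposed to high oxygen and the retina then grows abnormal vessels in room air, and retinas without it (nonOIR). There were 8 OIR and 8 nonOIR libraries, all from Cx3cr1CreERT2:Rosa26-tdTomato reporter mice at postnatal day 17. Pups of both groups had received 5 µl of tamoxifen at 21 mg per ml under the skin on day 1, which switches the reporter on in cells that express the Cx3cr1-driven recombinase, microglia and other cells of the mononuclear phagocyte lineage among them. Sorted cells were positive for tdTomato and CD11b, low for CD45 and negative for Ly6C and Ly6G. This gate leaves out monocytes that bear Ly6C and granulocytes that bear Ly6G, but not monocytes low in Ly6C. The labels do not say whether the libraries came from separate animals, so the spread behind each p-value may be technical in part.

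Cathepsins are made as inactive precursors, carried to the lysosome by mannose 6-phosphate and other sorting receptors, and activated there by the acid that a proton pump provides. Cathepsins B, C, F, H, K, L, S and Z are cysteine proteases of the papain family, cathepsin D is an aspartic protease, and cathepsin A is a serine carboxypeptidase. In macrophages and microglia they degrade engulfed material, and cathepsins S and L also process the invariant chain of MHC class II and antigens. Cystatins are natural inhibitors of the cysteine cathepsins.

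The cysteine cathepsins share a short stretch around the catalytic cysteine, shown here because it defines the family and because near-identical stretches could have mixed up short reads. Each line gives, for 7 of these genes, 39 bases of coding sequence (GENCODE M21 transcripts, mm10), with the cysteine codon in capitals and 18 bases on each side.

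Ctsb: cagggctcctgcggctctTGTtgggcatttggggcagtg
Ctsc: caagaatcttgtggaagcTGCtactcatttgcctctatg
Ctsh: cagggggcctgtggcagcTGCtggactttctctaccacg
Ctsk: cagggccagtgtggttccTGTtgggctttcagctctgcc
Ctsl: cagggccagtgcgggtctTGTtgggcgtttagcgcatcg
Ctss: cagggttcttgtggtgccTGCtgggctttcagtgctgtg
Ctsz: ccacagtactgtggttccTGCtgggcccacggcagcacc

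Over the 21 pairs of these 7 windows between 17 and 30 of the 39 bases were identical, with Ctsl sharing 30 bases with Ctsb and with Ctsk. The cysteine codon was number 108 in Ctsb and 148 in Ctss, counted from the start codon. Over the whole exons no member shared a stretch of 50 bases, the read length, with another member (0 windows for each), so a full read without mismatches could match only 1 cathepsin. Genes outside the family shared 32.4% of the windows of Ctsd, 26.3% of Ctsl, 12.1% of Ctsb and 11.6% of Ctsa, and at most 0.482% for each other member. How reads from those windows were counted was not tested. The genes lie apart on 7 chromosomes except for Ctsk (chr3:95499256-95509362) and Ctss (chr3:95526786-95556403), which are neighbours on the same strand in mm10. Ctsb lies at chr14:63122462-63145923 and Ctsd at chr7:142375911-142388038.

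Libraries held between 13.6 M and 30.0 M counts (M, mega-counts), with means of 25.1 ± 3.24 M for OIR and 22.3 ± 4.28 M for nonOIR (SD, n = 8 each). A lane code in the labels divides both groups alike, with 5 libraries in lane 1 and 3 in lane 2; what else the code marks was not given. All 12 microglial marker genes were tested, with P2ry12 at 6613 ± 1531 CPM in OIR and 11356 ± 1170 CPM in nonOIR (SD, n = 8 each), and 4 of the 12, P2ry12 among them, were lower in OIR. Markers of neutrophils were near or at 0 except Csf3r, with 4 of 12 at 0 in every library (Elane, Ngp, Retnlg and Ly6g). The summed level of 12 monocyte markers was 29.6 to 83.3 CPM in OIR and 10.9 to 23.0 CPM in nonOIR, with 2 of 6 tested members higher (Fn1 and Treml4). For 10 markers of border and perivascular macrophages the sum was 239 to 699 CPM in OIR and 126 to 442 CPM in nonOIR, with 1 of 10 higher. Erythroid markers (8 genes) summed to 1.87 to 293 CPM in OIR and 0 to 29.0 CPM in nonOIR, with both tested members higher. Retinal neuron markers (10 genes) summed to 13.1 to 33.6 CPM in OIR and 28.3 to 63.9 CPM in nonOIR, with 2 of 8 lower. Rod photoreceptor markers (12 genes) summed to 51.1 to 538 CPM in OIR and 77.8 to 654 CPM in nonOIR, and none was called. Markers of Muller glia and astrocytes (10 genes) summed to 292 to 394 CPM in OIR and 343 to 412 CPM in nonOIR. Of 7 tested, 1 was higher and 1 lower. The part of such cells in the differences below was not tested. Among all genes tested 6.39% were higher and 4.56% lower in OIR, and marker counts this small are not set apart from those shares. Levels are given as CPM (counts of a gene per M counts of its library, after TMM scaling), and differences as log2 fold changes of OIR over nonOIR with their standard error. A gene was called when its adjusted p was under 0.05 (quasi-likelihood test of edgeR, Benjamini-Hochberg adjustment over all 12496 genes tested).

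Cathepsin transcripts were abundant in both groups. The 10 genes took 5.63 ± 0.403% of an OIR library and 5.70 ± 0.373% of a nonOIR library (SD, n = 8 each), so their sum was alike while its make-up differed. By mean CPM, Ctss ranked 1 in OIR and 2 in nonOIR among all genes, Ctsd ranked 6 and 10, and Ctsb ranked 7 and 13. Per kilobase of exon, which allows genes to be compared with each other, the order was the same in both groups. Ctss was highest at 13810 CPM per kb in OIR and 20014 CPM per kb in nonOIR. Ctsd followed at 4694 CPM per kb in OIR and 3930 CPM per kb in nonOIR, then Ctsz (2377 and 2249) and Ctsb (1785 and 1231). Ctsl, Ctsa, Ctsh and Ctsc lay between 370 and 623 CPM per kb in OIR and between 418 and 562 CPM per kb in nonOIR. In this middle range some neighbours were not apart. Ctsl stood above Ctsa in 8 of 8 OIR libraries and 4 of 8 nonOIR libraries, Ctsa above Ctsh in 5 of 8 libraries of each group, and Ctsh above Ctsc in 6 of 8 OIR libraries and 8 of 8 nonOIR libraries. Ctsf (116 in OIR and 152 in nonOIR) and Ctsk came last. With the length of the longest transcript in place of all exons, the genes at places 5 to 8 changed order.

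Of the 9 cathepsin genes that passed the filter on low counts, 1 was higher in OIR (Ctsb) and 1 was lower (Ctss). Among all 12496 genes 10.9% were called, 6.39% higher and 4.56% lower, so 2 of 9 is a count too small to set apart from that background. The median log2 fold change of the 9 genes was -0.06, against -0.03 over all genes tested. Ctsk was the member that did not pass the filter. Of all called genes 58.3% were higher in OIR, a share that was 73.7% when libraries were scaled by their totals alone and 51.1% with upper-quartile scaling.

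Ctsb encodes cathepsin B, a cysteine protease with both endopeptidase and dipeptidyl carboxypeptidase activity. Its level had a lowest, median and highest value of 9585, 10407 and 12857 CPM in OIR and of 5878, 7316 and 8874 CPM in nonOIR. Every OIR library lay above every nonOIR library, which held in that direction for 1.34% of all genes tested and in either direction for 2.02%. Ctsb averaged 10799 ± 1110 CPM in OIR and 7446 ± 1077 CPM in nonOIR (SD, n = 8 each). This was a log2 fold change of 0.54 ± 0.09, or 1.45-fold, with an adjusted p of 0.00110. The call held without any single library (log2 fold change 0.49 to 0.58). Exons of Fdft1, which encodes squalene synthase, overlap 774 of the 6051 exon bases of Ctsb on the other strand, which these unstranded libraries cannot tell apart. Fdft1 had 5692 counts over the 16 libraries, against 3495593 for Ctsb, and went the other way, with a log2 fold change of -0.88 (adjusted p = 0.00252). In bulk samples such as these, a change in the number of cells of a type and a change in RNA per cell cannot be told apart.

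Ctss encodes cathepsin S, a cysteine protease that keeps its activity at neutral pH and trims the invariant chain in antigen-presenting cells. Its lowest, median and highest values were 13585, 17611 and 24716 CPM in OIR and 23966, 26587 and 32345 CPM in nonOIR. The groups overlapped, but 6 of 8 OIR libraries lay below the lowest nonOIR library. Ctss averaged 18754 ± 4389 CPM in OIR and 27180 ± 2491 CPM in nonOIR (SD, n = 8 each). Ctss fell with a log2 fold change of -0.54 ± 0.12, or to 0.690 of the nonOIR level (adjusted p = 0.00752), and the call held without any single library. Among the 5 OIR and 5 nonOIR libraries of lane 1 alone the call was lost (log2 fold change -0.37, adjusted p = 0.0874). The microglial marker P2ry12 had a difference in the same direction (log2 fold change -0.78, adjusted p = 0.000617). Whether the fall of Ctss goes with that of this marker cell by cell was not tested.

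**Figure D1:**
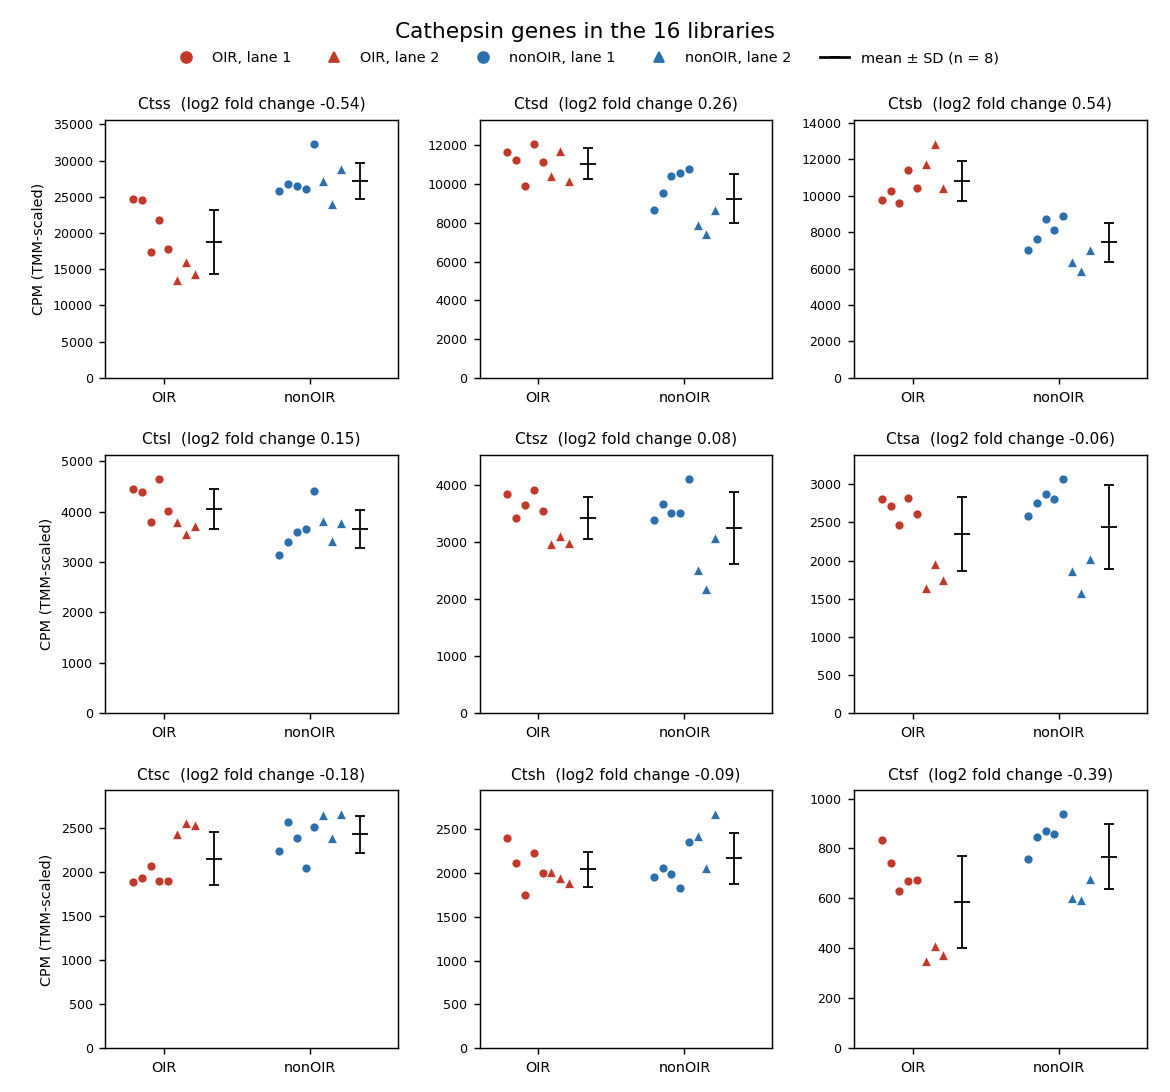
Level in CPM (linear axis from 0) of 9 cathepsin genes in each library, OIR in red and nonOIR in blue, lane 1 as circles and lane 2 as triangles, with the mean and SD of 8 libraries beside them. Ctsb is the only gene of the 9 in which all 8 OIR libraries lie above all 8 nonOIR libraries. Ctss lies lower in most OIR libraries. In Ctsa, Ctsf and Ctsz the lanes stand apart in both groups.

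Set against each other within a library, the opposite moves of Ctsb and Ctss separated the groups fully. The ratio of Ctsb counts to Ctss counts was 0.395 to 0.864 in OIR and 0.234 to 0.329 in nonOIR. It averaged 0.609 ± 0.174 over OIR libraries and 0.274 ± 0.0334 over nonOIR libraries (SD, n = 8 each). A ratio within a library does not depend on library scaling, but it was formed from genes already seen to differ and is given as a description.

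As a share of the summed cathepsin counts, Ctss made up 33.6 ± 4.58% in OIR and 46.5 ± 2.14% in nonOIR. Ctsd made up 20.1 ± 1.24% in OIR and 15.7 ± 1.19% in nonOIR, and Ctsb 19.8 ± 3.09% in OIR and 12.7 ± 0.958% in nonOIR (SD, n = 8 each). For each of these 3 genes the shares of the OIR and nonOIR libraries did not overlap, a measure without a counterpart over all genes. In CPM only Ctsb was without overlap, while Ctsd and Ctss overlapped. On average Ctsb and Ctsd together outweighed Ctss in OIR, while Ctss outweighed both together in nonOIR. Ctsl contributed 7.34 ± 0.385% in OIR and 6.24 ± 0.484% in nonOIR, and each of the other genes took a smaller share on average in both groups. Shares add up to 100% in each library, so a lower share of Ctss raises the others by itself.

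**Figure D2:**
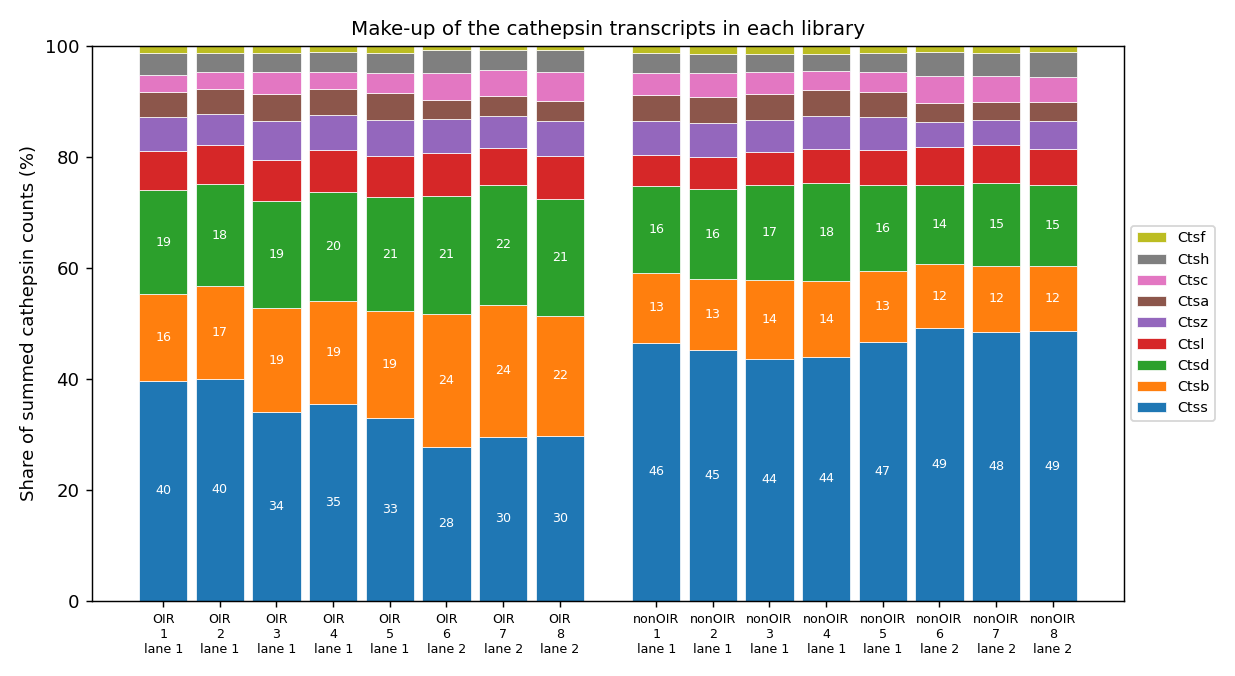
Stacked bars of the share (%) of each cathepsin gene in the summed cathepsin counts of each library, with OIR libraries on the left and nonOIR libraries on the right, the lane code under each bar, and values printed for Ctss, Ctsb and Ctsd. Ctss averages 33.6% in OIR and 46.5% in nonOIR, and its share is lowest in the 3 OIR libraries of lane 2.

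Ctsd encodes cathepsin D, the main aspartic protease of lysosomes, which is needed for the clearance of stored material in neurons and microglia. It had a lowest, median and highest value of 9911, 11207 and 12086 CPM in OIR and of 7402, 9119 and 10750 CPM in nonOIR. In 5 of 8 libraries OIR lay above the highest nonOIR library, and all 8 lay above the nonOIR median. Ctsd averaged 11036 ± 796 CPM in OIR and 9239 ± 1264 CPM in nonOIR (SD, n = 8 each), a log2 fold change of 0.26 ± 0.08. The adjusted p of 0.0538 just missed the threshold. In the authors' deposited table, where 14.4% of genes were called, the adjusted p of Ctsd was 0.0175. The gene was also called in 7 of 11 other settings, among them the fit with lane as a covariate (adjusted p = 0.00840), and when OIR replicate 3 or nonOIR replicate 3, 4 or 5 was left out (adjusted p 0.0341 to 0.0469). A transcript annotated as Gm49369 overlaps 808 of the 2351 exon bases of Ctsd on the same strand and had 0 counts, so reads that match both may have been dropped or given to Ctsd.

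Ctsf encodes cathepsin F, a cysteine protease that can also cut the invariant chain. It stood at 351, 649 and 835 CPM (lowest, median, highest) in OIR and at 594, 801 and 938 CPM in nonOIR, a log2 fold change of -0.39 ± 0.17 (adjusted p = 0.158). Ctsc encodes cathepsin C, also called dipeptidyl peptidase I, which activates the serine proteases of granules in immune cells. It stood at 2149 ± 301 CPM in OIR and 2428 ± 209 CPM in nonOIR (SD, n = 8 each), a log2 fold change of -0.18 ± 0.09 (adjusted p = 0.211). Neither passed the test over all libraries, and both were called with lane as a covariate.

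Ctsl encodes cathepsin L, a broad endopeptidase. Its values of 4044 ± 399 CPM in OIR and 3648 ± 376 CPM in nonOIR gave a log2 fold change of 0.15 ± 0.08 (adjusted p = 0.244), which passed only with scaling by library totals alone (adjusted p = 0.0370). Ctsh, an aminopeptidase, stood at 2040 ± 203 CPM in OIR and 2164 ± 287 CPM in nonOIR, with a 95% interval of the log2 fold change of -0.25 to 0.08. Ctsz encodes cathepsin Z, a carboxypeptidase, at 3425 ± 370 CPM in OIR and 3241 ± 632 CPM in nonOIR (interval -0.14 to 0.30). Ctsa encodes cathepsin A, which also protects beta-galactosidase and neuraminidase from breakdown, at 2346 ± 487 CPM in OIR and 2444 ± 549 CPM in nonOIR (interval -0.35 to 0.23; SD, n = 8 each). For these 3 genes the adjusted p was between 0.592 and 0.858, and the intervals allow changes in either direction.

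Ctsk encodes cathepsin K, the collagen-degrading protease of osteoclasts, also made by fibroblasts. It was at or near 0: OIR replicate 5 held 2 counts and nonOIR replicate 8 held 22 counts (0.956 CPM), and every other library held 0. A count of 0 allows up to 3 counts, or 0.118 CPM in OIR and 0.144 CPM in nonOIR on average. In nonOIR replicate 8 the summed level of 10 pericyte and fibroblast markers was also the highest of all libraries, at 10.4 CPM, against 0.675 to 4.81 CPM in OIR and 0.709 to 3.61 CPM in the rest of nonOIR. The part of such cells in the Ctsk counts was not tested. No library therefore held Ctsk at a level near that of the other 9 genes.

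The lane code went with the level of several cathepsins. In a fit over both groups with group as a covariate, 6 of the 9 genes differed between the lanes, where 24.8% of all genes did (11% higher and 13.8% lower in lane 2). Ctsa was the clearest, at 1783 CPM in OIR and 1818 CPM in nonOIR in lane 2, against 2684 CPM in OIR and 2820 CPM in nonOIR in lane 1. This was a log2 difference of -0.61 for lane 2 minus lane 1 (adjusted p = 1.30e-06), while OIR and nonOIR lay close together within each lane. Ctsf (-0.68, adjusted p = 1.73e-05), Ctsz (-0.39, adjusted p = 0.000496), Ctss (-0.29, adjusted p = 0.0440) and Ctsd (-0.19, adjusted p = 0.0471) were also lower in lane 2, and Ctsc was higher (0.25, adjusted p = 0.00428). The lanes were not apart in each group for all of these genes. Ctss averaged 26646 ± 2479 CPM in lane 2 and 27500 ± 2728 CPM in lane 1 of nonOIR, and Ctsd 10744 ± 830 CPM in lane 2 and 11211 ± 814 CPM in lane 1 of OIR (SD, n = 3 in lane 2 and 5 in lane 1).

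With lane as a covariate in the comparison of OIR with nonOIR, 5 of the 9 cathepsin genes were called, 2 higher and 3 lower, where 17.3% of all genes were called (9.68% higher and 7.59% lower). The higher genes were Ctsb (log2 fold change 0.54, adjusted p = 0.000283) and Ctsd (0.26, adjusted p = 0.00840). The lower genes were Ctss (-0.56, adjusted p = 0.000650), Ctsf (-0.44, adjusted p = 0.00121) and Ctsc (-0.19, adjusted p = 0.0329). The fold changes hardly differed from those without the covariate.

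Each lane was also fitted alone. Ctsb had a log2 fold change of 0.91 in lane 2 (adjusted p = 0.000447) and of 0.36 in lane 1 (adjusted p = 0.0223). In lane 2 it averaged 11671 ± 1222 CPM in OIR and 6421 ± 578 CPM in nonOIR (SD, n = 3 each), and in lane 1 10275 ± 704 CPM in OIR and 8061 ± 776 CPM in nonOIR (SD, n = 5 each). Ctss differed by -0.82 in lane 2 (adjusted p = 0.000529), Ctsf by -0.68 (adjusted p = 0.00170) and Ctsd by 0.47 (adjusted p = 0.00628), while in lane 1 these genes were at -0.37, -0.26 and 0.17 and were not called. Ctsc ran the other way round, at 0.01 in lane 2 (adjusted p = 0.932) and -0.27 in lane 1 (adjusted p = 0.0451). In lane 2 alone 15.4% of all genes were called and in lane 1 alone 3.33%. The difference between the lanes was tested as an interaction. For Ctsb it was 0.51 on the log2 scale (unadjusted p = 0.000847, adjusted p = 0.0767), and 0 of the 9 genes passed the edgeR test after adjustment, where 0.496% of all genes did. Before adjustment 6 of the 9 had a p under 0.05 in this test. The share of all genes under that unadjusted threshold was not taken, so nothing is read from the 6.

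**Figure D3:**
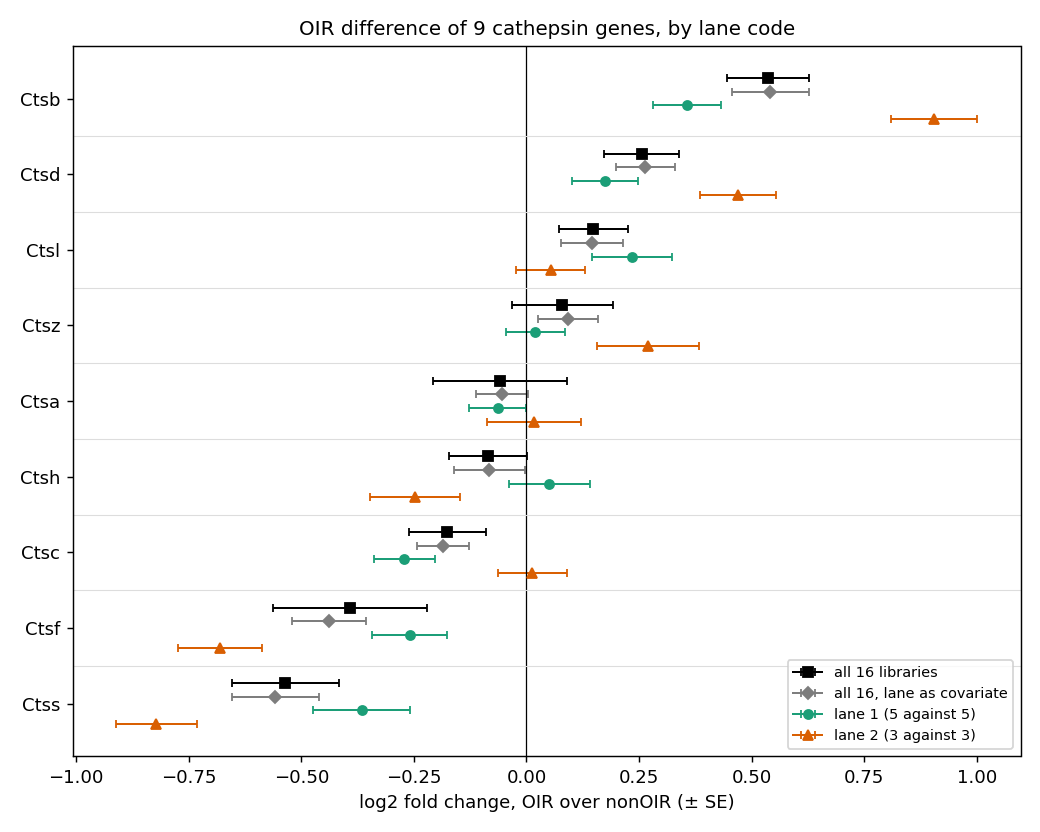
Log2 fold change of OIR over nonOIR with its standard error for 9 cathepsin genes, from all 16 libraries, from all 16 with lane as a covariate, and from each lane alone. Ctsb lies above 0 and Ctss and Ctsf lie below 0 in all 4 fits, with larger differences in lane 2 than in lane 1. Ctsd, Ctsl and Ctsz also lie above 0 in all 4 fits. Ctsa, Ctsc and Ctsh change side between the lanes, with each value above 0 within 1 standard error of it.

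Of 13 other cathepsin genes 3 were tested, and 1 was called, where 10.9% of all genes tested were. A count this small is not set apart from that share. Ctso, which encodes the cysteine protease cathepsin O, fell to 223 ± 28.9 CPM in OIR, against 305 ± 51.5 CPM in nonOIR (SD, n = 8 each, log2 fold change -0.45, adjusted p = 0.0108). All 8 OIR libraries lay below the nonOIR median, and the call was lost in lane 1 alone (adjusted p = 0.0670). Ctsw, known from cytotoxic lymphocytes (6.93 CPM in OIR and 8.14 CPM in nonOIR), and Ctse, an aspartic protease (12.5 CPM in OIR and 11.9 CPM in nonOIR), had adjusted p-values of 0.719 and 0.916. The other 10, Ctsg of neutrophil granules and the placental cathepsins among them, had 0 counts in every library.

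The inhibitors of cathepsins changed in both directions. Of 16 listed inhibitor genes 14 were matched by symbol and 5 passed the filter and were tested. Of these 3 were higher and 1 was lower in OIR, where 10.9% of all genes were called. The median log2 fold change of the 5 was 0.77, against -0.03 over all genes tested. Cst3 encodes cystatin C, a secreted inhibitor of cysteine cathepsins, and ranked 4 in OIR and 1 in nonOIR among all genes by mean CPM. It fell to 17204 ± 4244 CPM in OIR, against 32502 ± 3151 CPM in nonOIR (log2 fold change -0.92, adjusted p = 0.000221), with all OIR libraries (13087 to 24955 CPM) below all nonOIR libraries, as 0.688% of all genes did. Cst7 encodes cystatin F, which is targeted to lysosomes and inhibits cathepsin C. It rose to 86.7 ± 9.68 CPM in OIR, against 34.1 ± 8.49 CPM in nonOIR (log2 fold change 1.34, adjusted p = 2.38e-05), again without overlap, as 1.34% of all genes in that direction. Cstb encodes cystatin B, an inhibitor in the cytosol and nucleus, and stood at 193 ± 75.0 CPM in OIR and 94.6 ± 12.2 CPM in nonOIR (SD, n = 8 each, log2 fold change 1.03, adjusted p = 0.00180). Its 3 OIR libraries of lane 2 were the highest, at 261 to 304 CPM, and the 5 of lane 1 stood at 121 to 168 CPM. Serpinb6a, a serpin of the cytosol, had a log2 fold change of 0.77 (adjusted p = 0.0134), at 23.5 CPM in OIR and 13.8 CPM in nonOIR, and lost its call in lane 1 alone (adjusted p = 0.146). Because Cst3 outweighed the others, the summed CPM of the listed inhibitors was lower in OIR, at 13515 to 25230, against 28237 to 36905 in nonOIR.

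Among partners and substrates of cathepsins, 3 of 13 tested genes rose and 1 fell, where 6.39% of all genes rose and 4.56% fell. Ifi30 encodes a lysosomal thiol reductase that unfolds antigens, at 232 ± 21.6 CPM in OIR and 160 ± 25.3 CPM in nonOIR (log2 fold change 0.54, adjusted p = 0.00172). Its groups did not overlap, as for 1.34% of all genes in that direction. Cd74 encodes the invariant chain, the substrate of cathepsin S, at 120 ± 22.3 CPM in OIR and 78.4 ± 24.1 CPM in nonOIR (0.62, adjusted p = 0.0248). H2-DMa encodes a chain of the molecule that exchanges the last invariant chain fragment for peptides, and fell to 383 ± 46.6 CPM in OIR, against 502 ± 45.1 CPM in nonOIR (SD, n = 8 each, -0.39, adjusted p = 0.00516), with no overlap, as 0.688% of all genes in that direction. Galns, a sulfatase that binds cathepsin A in a complex, had a log2 fold change of 0.58 (adjusted p = 0.0197). Ctss was thus lower in OIR while the transcript of its substrate was higher. In lane 1 alone the calls of Cd74 (adjusted p = 0.166) and H2-DMa (adjusted p = 0.0649) were lost.

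**Figure D4:**
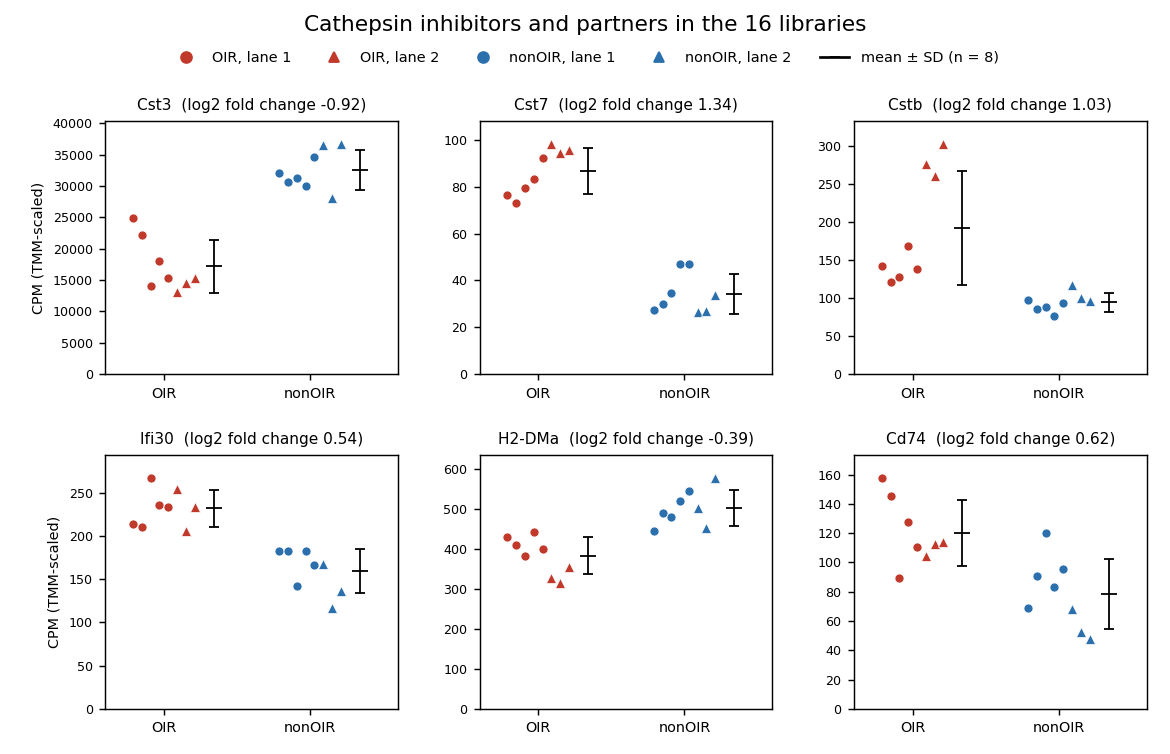
Level in CPM (linear axis from 0) of 3 cystatin genes and 3 partner genes in each library, OIR in red and nonOIR in blue, lane 1 as circles and lane 2 as triangles, with the mean and SD of 8 libraries. Cst3, Cst7, Cstb, Ifi30 and H2-DMa show no overlap between OIR and nonOIR libraries, as 2.02% of all genes tested in either direction, and Cd74 overlaps. These genes were named for a low p in the same comparison, so their separation is a description only.

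For the other lysosomal genes the counts below are read against 10.9% of all genes called, 6.39% higher and 4.56% lower, and counts this small are not set apart from it. Of 6 other lysosomal peptidases 1 was called, the prolyl carboxypeptidase gene Prcp (169 CPM in OIR and 219 CPM in nonOIR, log2 fold change -0.37, adjusted p = 0.0445). Legumain (Lgmn), the asparaginyl endopeptidase that cleaves cathepsin precursors into 2 chains, stood at 5831 ± 746 CPM in OIR and 7041 ± 907 CPM in nonOIR (-0.27, adjusted p = 0.0637), and it passed with lane as a covariate (adjusted p = 0.0126) or without OIR replicate 5 (adjusted p = 0.0302). Of 14 genes of sorting and activation 3 were higher and none was lower. They were Grn, the progranulin gene, at 4536 ± 448 CPM in OIR and 3515 ± 713 CPM in nonOIR (SD, n = 8 each, 0.37, adjusted p = 0.0356), the retromer gene Vps29 (0.43, adjusted p = 0.0385) and the adaptor gene Gga2 (0.54, adjusted p = 0.0456). Of 21 lysosomal membrane genes 1 was lower, the amino acid sensor gene Slc38a9 (-0.39, adjusted p = 0.0394). The direction of this list's calls turned with the scaling, with 3 higher and 0 lower by library totals alone, and 3 higher and 4 lower were called with lane as a covariate. Cd63, a tetraspanin of late endosomes, stood at 633 ± 182 CPM in OIR and 460 ± 83.2 CPM in nonOIR, with an adjusted p of 0.0674.

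Among 17 subunits of the vacuolar proton pump 3 were higher, Atp6v1a (log2 fold change 0.42, adjusted p = 0.0337), Atp6v0d1 (0.33, adjusted p = 0.0454) and Atp6v1b2 (0.24, adjusted p = 0.0465). The accessory subunit gene Atp6ap1 was lower (-0.23, adjusted p = 0.0350). These calls too depended on the scaling, with 0 higher and 1 lower by upper quartile and 4 higher and 0 lower by library totals alone, and they were lost in lane 1 alone. Of 17 genes of the MiT/TFE factors, which switch lysosomal genes on, and their regulators, 2 were higher. They were Lamtor2 (0.41, adjusted p = 0.0480) and Tfec, at 6.23 ± 1.75 CPM in OIR and 1.17 ± 1.17 CPM in nonOIR (SD, n = 8 each, log2 fold change 2.42, adjusted p = 0.0314). The more abundant factor genes Tfeb (-0.12), Tfe3 (-0.07) and Mitf (-0.15) were not called (adjusted p 0.556 to 0.812). The medians of these lists lay between -0.14 and 0.15, against -0.03 over all genes tested. In the order given above, the 8 lists held 3, 5, 13, 6, 14, 21, 17 and 17 tested genes. Of these genes 20 were called, where 10.9% of all genes tested were. Of the 20, 11 lost the call when a single library was left out. Each of these 11 (Prcp, Grn, Vps29, Gga2, Slc38a9, the 4 pump genes, Tfec and Lamtor2) depended on between 5 and 12 of the 16 libraries, and each library ended at least 1 call. The other 9, which were Ctso, Cst3, Cst7, Cstb, Serpinb6a, Ifi30, Cd74, H2-DMa and Galns, held without any single library.

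**Figure D5:**
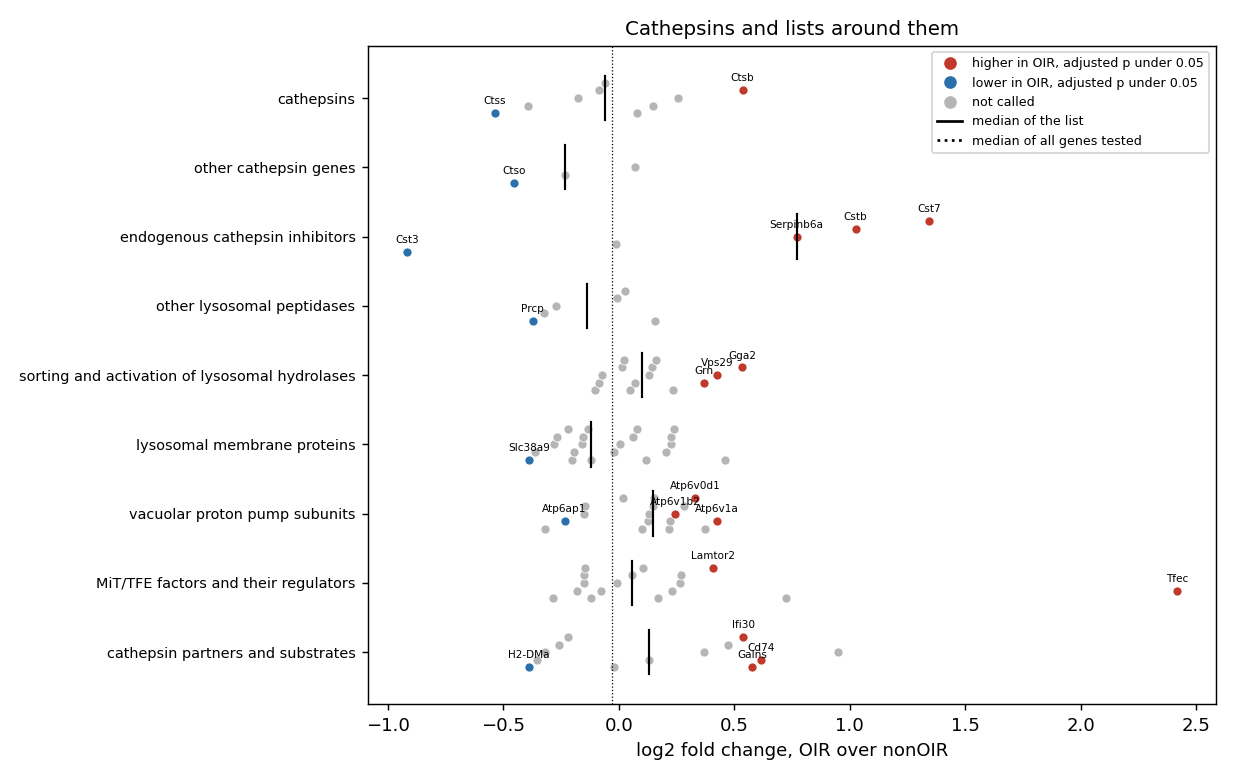
Log2 fold change of OIR over nonOIR for each tested gene (points) of the cathepsins and of 8 lists around them, with called genes in red (higher) and blue (lower), the median of each list as a bar and that of all genes tested as a dotted line. The tested inhibitors reach from Cst3 at -0.92 to Cst7 at 1.34, and the point farthest from 0 is Tfec at 2.42.

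The genes most like Ctsb and Ctss over the libraries were found as those with the highest Pearson correlation within OIR and within nonOIR, taking the lower of both values. This was done over 8 libraries each and 7801 genes with a mean of at least 10 CPM. For Ctsb they were Cd68, a membrane protein of macrophage lysosomes (r = 0.86 in OIR and 0.90 in nonOIR), the proton pump gene Atp6v1d (0.80 and 0.79) and the lysosomal membrane gene Glmp (0.74 and 0.84). For Ctss they were the immunoglobulin receptor gene Fcgr3 (0.82 in OIR and 0.84 in nonOIR), Cd79b (0.84 and 0.83) and Ldhb (0.81 and 0.96). None of the 3 genes most like Ctsb was called, with log2 fold changes of 0.12 to 0.22, and of those most like Ctss only Fcgr3 was (-0.34, adjusted p = 0.0188). Libraries of a group differ in depth and lane, so these values are a description over few points.

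Promoter windows of 250 bases before the start (RefSeq, GRCm38.p6) were present for 8 of the 10 genes, with 2 windows for Ctsa, and were searched on both strands. Ctsb and Ctsh had no window and were not searched. The E-box CACGTG, which MiT/TFE factors bind, was found for Ctsa, Ctsd, Ctsf and Ctsl, where 6.02% of 32851 windows hold it. The longer TCACGTGA was found for Ctsa and Ctsd, against 0.785% of all windows, and each match contains the shorter motif. The interferon-response core, GAAA repeated after any 2 bases, was found for Ctss alone among the 8, against 2.98% of all windows. The motif GAGGAAGT of the myeloid factor PU.1 was found for Ctsc (2.44% of windows), the AP-1 motif TGANTCA for none (6.75%), and the GC box GGGCGG for Ctsc, Ctsd, Ctsf, Ctss and Ctsz (32.7%). The windows of Ctsd and Ctss are shown because these are the most abundant cathepsin transcripts per kilobase and hold different motifs.

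Ctsd, chr7:142387828-142388077, minus strand: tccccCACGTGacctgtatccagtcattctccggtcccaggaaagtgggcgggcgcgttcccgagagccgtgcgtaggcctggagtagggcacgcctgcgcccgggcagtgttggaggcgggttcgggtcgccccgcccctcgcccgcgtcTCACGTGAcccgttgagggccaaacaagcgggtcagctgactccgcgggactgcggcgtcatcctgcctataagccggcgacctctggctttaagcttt
Ctss, chr3:95526536-95526785, plus strand: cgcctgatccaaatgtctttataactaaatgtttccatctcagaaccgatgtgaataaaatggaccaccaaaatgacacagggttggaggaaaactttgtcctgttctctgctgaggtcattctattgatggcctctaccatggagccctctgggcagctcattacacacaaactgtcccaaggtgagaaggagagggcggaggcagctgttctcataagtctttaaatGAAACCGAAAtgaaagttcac

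Capitals mark the E-boxes of Ctsd, 245 and 98 bases before the RefSeq start, the second within TCACGTGA, and the interferon-response core of Ctss, which begins 21 bases before the start. For Ctsd the RefSeq start lies inside the GENCODE M21 span of the gene given above, which reaches 142388038. Most of its window, TCACGTGA included, thus lies within that span. The 4 genes with an E-box had log2 fold changes of -0.39 (Ctsf), -0.06 (Ctsa), 0.15 (Ctsl) and 0.26 (Ctsd), none of them called over all libraries. Whether Ctsb, the member called higher, holds any of these motifs is not known from this search. A match describes these letters only and was not tested for binding.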

How the data were processed

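RNA sequencing of 16 sorted microglia samples was read from the deposited gene table. The deposited counts are whole numbers for each gene, as the file headers and values show. For their making, the submitters' processing notes list mm10, DESeq2 2.11.40.2, featureCounts 1.6.2, STAR 2.6.0b-1 and FastQC 0.72, without roles. Within a library, the deposited normalized signal is the count over 1 fixed factor. The authors' deposited table also gives a log2 fold change, its standard error, a Wald score and p-values, used only for comparison. Per the labels' protocols, 750 pg of RNA, 12 amplification cycles and single reads of 50 bases were used, with a kit that does not mark strand; without molecular identifiers, floors cover counting error only.

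Counts were filtered (filterByExpr), scaled by TMM and tested across all genes with edgeR 4.0.16 in R 4.3.3 (quasi-likelihood, robust, two-sided), checked on simulated data. Alternatives used DESeq2 1.42.0, limma 3.58.1, other scalings and filters, lane, and each library left out. Libraries of a group differed beyond sampling noise (lowest chi-square per gene 15.7). Of the gene IDs 54409 were in GENCODE M21. The members and lists were chosen with earlier results of these data known. Named from each list were up to 4 genes with the lowest p and the most abundant one; some that missed the threshold are left out. Planned tests of shares are left out because they adjust over the members alone, and correlations between members because lanes form separate clusters. Some items are not reported here.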

Additional observations from a re-analysis of the deposited data

Results flagged for a closer look

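In a check of single libraries over 86 sets of 8 values (43 genes in 2 groups), 1 library stood apart from the rest of its group by a gap that is large against the range. Psap, which encodes prosaposin, the precursor of lysosomal lipid-degrading cofactors, had 6701 CPM in nonOIR replicate 4, where means were 4496 ± 1738 CPM in OIR and 3817 ± 1444 CPM in nonOIR (SD, n = 8 each). Chance flags about 1 in 20 such groups, so a single flag is fewer than chance alone would give. Psap was not called (adjusted p = 0.617).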

How the results depend on the processing

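The count of called genes over the whole table was 1368, against 2159 with lane as a covariate, 417 in lane 1 alone, and 935 to 1556 with 1 library left out. Among the 9 cathepsin genes 2 were called, against 4 with library totals alone (Ctsl and Ctsd added), 5 with lane as a covariate, 4 in lane 2 alone, and 2 to 3 with 1 library left out. With replicate numbers as a replicate block 4 cathepsin genes were called (Ctsd and Ctsf added) and 1679 genes in all; same-numbered libraries share little beyond the number (correlation of deviations 0.0118 to 0.295, and 2 of 8 numbers match best), so no pairing is taken from it. Of the genes in the 8 lists 20 were called, against 13 without a filter on low counts, 31 with lane as a covariate, 6 in lane 1 alone, 33 in lane 2 alone, and 10 to 21 with 1 library left out. Ctsb was called in all 11 other settings and Ctss in 10, and both kept their direction. Genes that were not called changed sign as follows, and the cause was not tested. Ctsa was at 0.00846 with library totals alone, 0.0164 in lane 2 and -0.130 to 0.0137 with 1 library left out (above 0 without OIR replicate 6 or 8). Ctsc was at 0.0129 in lane 2, Ctsh at 0.0511 in lane 1 and Ctsw at 0.0594 in lane 2. Ctse was at -0.0503 in lane 1 and at -0.0508 to 0.238 with 1 library left out (below 0 without OIR replicate 4 or 5 or nonOIR replicate 7). Scaling moved the median log2 fold change of all genes by at most 0.0684.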
